A study of Homo sapiens with 12 samples.

Results

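TRiC, also called CCT, is the chaperonin of the eukaryotic cytosol, and its subunits are encoded by *TCP1*, *CCT2*, *CCT3*, *CCT4*, *CCT5*, *CCT6A*, *CCT7* and *CCT8*. These 8 symbols were taken by name from the 43236 gene symbols counted in the study, and all 8 were among the 15979 genes that passed the filter on low counts. Poly(A) RNA of MNNG/HOS cells, labelled HOS-MNNG, was sequenced after 6 h or 24 h with 300 nM NXP800, an oral small molecule first developed against the heat shock factor 1 (HSF1) pathway, or with DMSO, its solvent control. Each of the 4 conditions (DMSO 6 h, NXP800 6 h, DMSO 24 h and NXP800 24 h) has 3 libraries, and the labels give the cells no other agent or genetic change. MNNG/HOS is a chemically transformed derivative of the human osteosarcoma line HOS, so the groups describe 1 line in culture. The labels do not say whether the replicates were separate cultures, and the p-values below measure the spread between these libraries, which may be technical.

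The chaperonin forms a pair of stacked rings, each built from 1 copy of every subunit, and closes around its clients with ATP to let them fold. Actin and tubulin depend on it, as do many proteins with WD40 repeats, such as the β subunits of G proteins and the activators of the anaphase-promoting complex. Nascent actin and tubulin are handed over by prefoldin, phosducin-like proteins act as cofactors, and genes of several subunits have been described as targets of heat shock factors. Since the ring holds the subunits in equal number, the question asked of the counts was whether the 8 transcripts moved together under NXP800.

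Between 30810614 and 31947656 counts fell on genes in a library. The 6 h and 24 h sets were not alike. At 6 h 6.66 to 8.14% of read pairs lay on no annotated gene and 1.86 to 1.99% aligned to several places, whereas at 24 h these shares were 2.73 to 3.67% and 2.96 to 3.37%, so NXP800 was compared with DMSO within each time. Of the markers of the osteosarcoma line, *VIM* lay at 3340 to 5890 CPM (counts relative to the TMM-scaled library size), *RUNX2* at 20.7 to 42.5 and *COL1A1* at 143 to 566, whereas *COL1A2*, which encodes the partner chain of type I collagen, lay at 0 to 0.378. Among markers of other cells, *CDH1*, *PTPRC*, *CD3E* and *SOX10* were at or near 0, while *KRT8* reached 492 to 895, *CD68* 60.9 to 154 and *EPCAM* 5.59 to 10.2 CPM. Each subunit had 12090 to 34289 counts in a library, and the spread between replicates rather than counting error set the precision.

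The genes lie on 7 chromosomes in GRCh38 (RefSeq coordinates): *TCP1* (GeneID 6950) at chr6:159778498-159789602, *CCT2* (GeneID 10576) at chr12:69585459-69601570, *CCT3* (GeneID 7203) at chr1:156308968-156338292, *CCT4* (GeneID 10575) at chr2:61868085-61888671, *CCT5* (GeneID 22948) at chr5:10249921-10266412, *CCT6A* (GeneID 908) at chr7:56051765-56063989, *CCT7* (GeneID 10574) at chr2:73234308-73253005 and *CCT8* (GeneID 10694) at chr21:29056326-29073648. *CCT4* and *CCT7* share a chromosome, and *TCP1*, *CCT3*, *CCT4* and *CCT8* are transcribed from the minus strand.

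Since the subunits are studied as co-regulated genes, the 250 bases before the transcription start are shown for 4 subunits whose response to NXP800 departed from that of the complex or differed between the time points. Capitals mark every match, on either strand, to CCAAT (read as ATTGG on the other strand), to CCGGAAG, a core for ETS factors, or to GAANNTTC, a pair of the inverted units of heat shock elements. The sequences are RefSeq promoters of GRCh38.p14, written 5′ to 3′ on the strand of the gene.
TCP1, chr6:159789603-159789852, minus strand: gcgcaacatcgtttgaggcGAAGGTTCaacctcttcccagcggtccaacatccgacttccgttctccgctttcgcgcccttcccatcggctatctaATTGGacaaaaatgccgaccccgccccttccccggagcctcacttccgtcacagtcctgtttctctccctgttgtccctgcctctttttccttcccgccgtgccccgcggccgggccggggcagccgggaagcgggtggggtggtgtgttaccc
CCT2, chr12:69585209-69585458, plus strand: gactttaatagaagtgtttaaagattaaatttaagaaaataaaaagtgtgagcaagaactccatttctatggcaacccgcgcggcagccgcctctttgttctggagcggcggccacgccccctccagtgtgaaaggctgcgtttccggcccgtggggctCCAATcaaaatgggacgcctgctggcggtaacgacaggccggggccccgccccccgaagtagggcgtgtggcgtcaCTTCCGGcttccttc
CCT3, chr1:156338293-156338542, minus strand: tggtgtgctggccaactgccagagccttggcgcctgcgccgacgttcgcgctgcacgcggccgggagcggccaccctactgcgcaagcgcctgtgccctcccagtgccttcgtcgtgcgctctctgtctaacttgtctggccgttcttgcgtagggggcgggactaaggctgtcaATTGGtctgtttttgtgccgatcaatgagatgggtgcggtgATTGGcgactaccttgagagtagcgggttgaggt
CCT8, chr21:29073649-29073898, minus strand: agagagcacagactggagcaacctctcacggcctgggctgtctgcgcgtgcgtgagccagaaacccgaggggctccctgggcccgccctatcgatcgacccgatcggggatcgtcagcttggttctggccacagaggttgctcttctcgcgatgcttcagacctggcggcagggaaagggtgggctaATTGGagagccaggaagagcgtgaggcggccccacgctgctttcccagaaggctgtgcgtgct

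The capitals differ between the 4 subunits. *TCP1* has a GAANNTTC pair starting 231 bases before the start and a CCAAT box 154 bases before it, *CCT2* a CCAAT box 91 bases and CCGGAAG 15 bases before it, *CCT3* CCAAT boxes 75 and 34 bases before it, and *CCT8* a CCAAT box 63 bases before it. Promoter windows of 250 bases before to 50 after the start were at hand for 7 subunits, all but *CCT6A*, and comprised 9 windows, since *CCT2* and *CCT4* have 2 starts. In these windows CCAAT was found for 4 subunits, against 34.61% of the 35116 RefSeq promoters of the same length. GAANNTTC was found for 2 subunits (*TCP1* and the other start of *CCT2*; 6.77% of all promoters), the reverse arrangement TTCNNGAA for 1 (*CCT4*; 7.74%) and CCGGAAG for 1 (*CCT2*; 10.26%). No window held the E-box CACGTG (7.26%) or TGATGNAA, a core of the sites of C/EBP and ATF4 (3.62%), and the windows of *CCT5* and *CCT7* held none of the 6 motifs. The bases before the start in the *CCT5* window, chr5:10250287-10250536, lie inside the gene, which begins at 10249921. The sequence before that beginning of *CCT5* was not searched. GAANNTTC, TTCNNGAA and CACGTG read the same on both strands, and no matches overlapped in the printed sequences.

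Levels of the 8 transcripts were taken per kilobase of the MANE Select transcript, and their range and order depend on this length. All annotated exons (GENCODE) span 2701 bases for *CCT4* and 4230 for *CCT2*, against 2376 and 1916 in the MANE Select transcripts. Levels per that longer length were not computed. The highest was 1.68-fold above the lowest in DMSO 6 h, 1.92-fold in NXP800 6 h, 1.9-fold in DMSO 24 h and 1.84-fold in NXP800 24 h. In DMSO 6 h the mean level was 378 ± 15.4 CPM per kb (SD, n = 3, as for the other means here) for *CCT8*, 372 ± 7.38 for *CCT7*, 320 ± 8.13 for *CCT5*, 286 ± 4.43 for *TCP1*, 251 ± 12.2 for *CCT4*, 235 ± 9.68 for *CCT2*, 233 ± 3.47 for *CCT3* and 225 ± 4.01 for *CCT6A*. The replicates of *CCT8* and *CCT7* overlapped, as did those of *CCT4* and *CCT2* and of *CCT2* and *CCT3*, whereas the other neighbours in this order were apart.

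The order changed with time and treatment. In NXP800 6 h *CCT3*, the γ subunit, took the lowest place at 190 ± 2.72 CPM per kb, below *CCT6A* at 196 ± 0.358, and *CCT2*, the β subunit, at 257 ± 5.09 stood beside *TCP1*, the α subunit, at 258 ± 2.43. In DMSO 24 h *CCT7*, the η subunit, was highest at 408 ± 14.1, followed by *CCT5* at 342 ± 12.5, *CCT8* at 331 ± 6.96, *TCP1* at 318 ± 16.1, *CCT4* at 296 ± 12.3, *CCT3* at 280 ± 8.96, *CCT2* at 246 ± 6.49 and *CCT6A* at 215 ± 12.5. From *CCT5* down to *CCT3* each overlapped with the next, and the other neighbours were apart. In NXP800 24 h *TCP1* had moved from place 4 to place 7, at 220 ± 17 CPM per kb, while *CCT7* remained highest at 363 ± 18.3 and all neighbours below *CCT7* overlapped. Between the DMSO groups, which differ in time and in the library properties above, the ratio of 24 h to 6 h was 1.2 for *CCT3*, 1.18 for *CCT4*, 1.11 for *TCP1* and 1.1 for *CCT7* without overlap, 1.07 for *CCT5*, 1.05 for *CCT2* and 0.953 for *CCT6A* with overlap, and 0.877 for *CCT8*, the θ subunit, whose replicates were apart in the opposite direction. Time and library set cannot be told apart in these ratios.

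**Figure D1:**
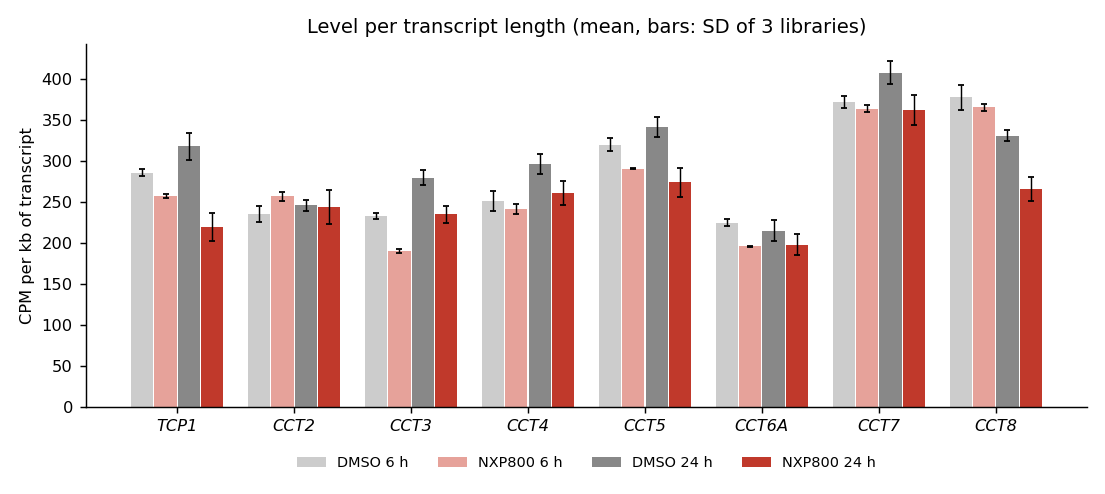
Mean level of each subunit in CPM per kilobase of the MANE Select transcript (vertical axis, from 0) in the 4 groups, with bars for the SD of 3 libraries. *CCT7* and *CCT8* stood at the top in DMSO 6 h (372 and 378) and *CCT6A* at the bottom (225), and *TCP1* dropped to 220 in NXP800 24 h.

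At 6 h NXP800 lowered 2 of the 8 subunit transcripts, *CCT3* and *CCT6A*, and raised none at an adjusted p below 0.05, where 27.8% of all tested genes decreased and 25% increased. *CCT3* lay at 463.9, 464.3 and 452.2 CPM in the DMSO libraries and at 377.5, 369.9 and 380.3 in the NXP800 libraries. The groups were wide apart, and the log2 fold change was -0.29 (SE 0.058, edgeR quasi-likelihood adjusted p = 0.000499), a fall to 0.817 of the control. *CCT6A*, the ζ subunit, lay at 590.5, 584.8 and 570.4 CPM with DMSO and at 507.4, 505.9 and 507.5 with NXP800. The NXP800 libraries were again all below the control, with a log2 fold change of -0.20 (SE 0.065, adjusted p = 0.0167), although this call was lost without DMSO 6 h replicate 1 (adjusted p = 0.0541), which left 1 subunit called. By edgeR at an unadjusted p below 0.05 the increased subunits also numbered 0 at both times, as they did with DESeq2's Wald test, and the decreased ones 4 at 6 h and 6 at 24 h. None of these fits paired the libraries by replicate number. In a fit blocked on this number 4 subunits decreased at 6 h (33.4% of all genes). With this block and with some other settings, given below, *CCT2* was called increased at 6 h. CPM are shares of a library, so that less of a transcript per cell and fewer cells with the transcript cannot be told apart.

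*TCP1*, *CCT5* and *CCT2* were apart from their controls at 6 h without passing the test. *TCP1* lay at 684.7, 672 and 664 CPM with DMSO and at 610.6, 610.1 and 600.5 with NXP800 (log2 fold change -0.15, SE 0.067, adjusted p = 0.0697). *CCT5*, the ε subunit, which with the δ subunit can form rings on its own when made in bacteria, lay at 1050, 1081 and 1028 against 959.4, 955.1 and 956.6 CPM (-0.14, SE 0.065, adjusted p = 0.0854). *CCT2* had the opposite sign, with 451.9, 467.5 and 430.5 CPM in DMSO and 499.3, 497.4 and 481.5 in NXP800 (0.13, SE 0.066, adjusted p = 0.109). Thus every NXP800 library was below every DMSO library for 4 subunits (*TCP1*, *CCT3*, *CCT5* and *CCT6A*), as for 32.7% of the tested genes, and above for 1 (*CCT2*), as for 29.3%. The replicate numbers pair the DMSO and NXP800 libraries. In a fit blocked on this number *TCP1* (adjusted p = 0.0163) and *CCT5* (adjusted p = 0.023) decreased and *CCT2* increased (adjusted p = 0.0256), which gave 4 decreased subunits (33.4% of all genes) and 1 increased (28.9%).

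The other 3 subunits overlapped with their controls at 6 h. *CCT4*, the δ subunit, ranged from 565.9 to 623.8 CPM with DMSO and from 564 to 592.1 with NXP800 (log2 fold change -0.05, 95% interval -0.201 to 0.101, adjusted p = 0.546). *CCT7* ranged from 673.5 to 700.7 and from 666 to 681.1 (-0.033, interval -0.173 to 0.108, adjusted p = 0.679). *CCT8* ranged from 671.7 to 728.6 and from 672 to 686.8 (-0.047, interval -0.189 to 0.096, adjusted p = 0.548). The intervals exclude a fall of these transcripts as deep as the estimate for *CCT3* but not falls of the size seen for *TCP1*.

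**Figure D2:**
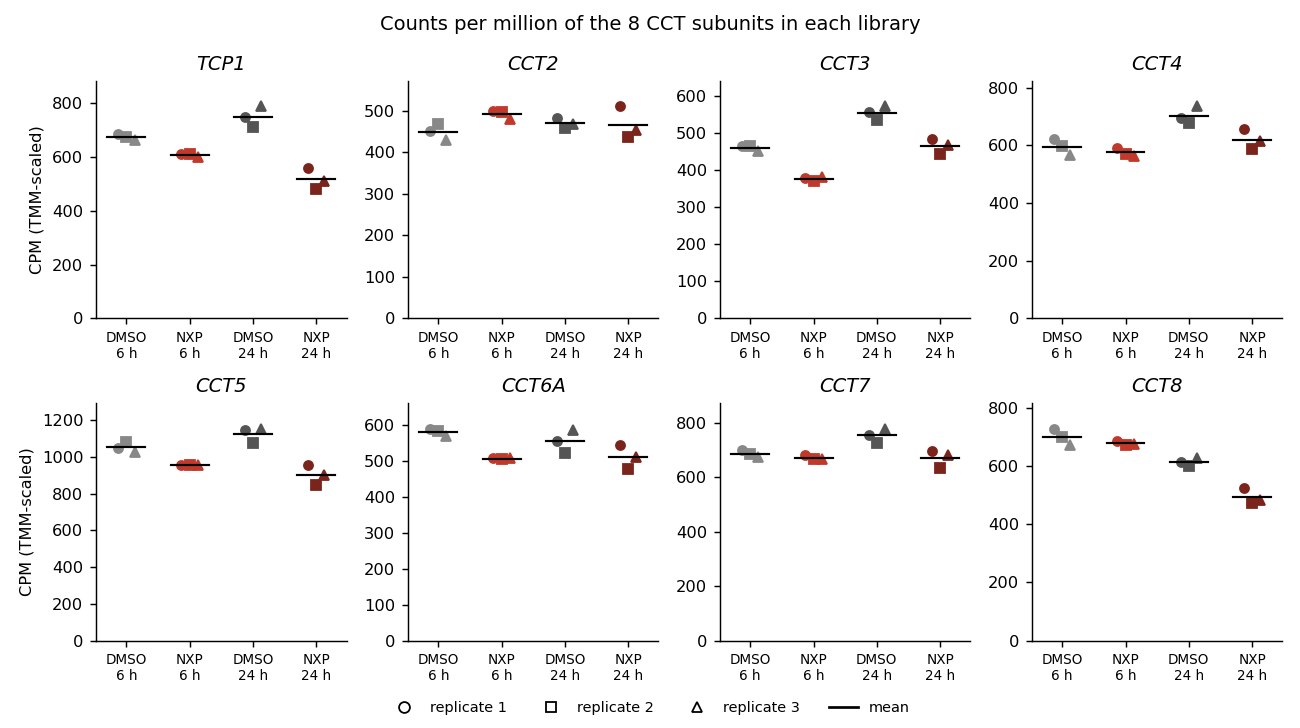
CPM (TMM-scaled, vertical axes from 0, each subunit on its own scale) of the 8 subunits in each of the 12 libraries, with a symbol per replicate number and a line at the group mean. At 6 h *CCT3*, *CCT6A*, *TCP1* and *CCT5* lay wholly below DMSO and *CCT2* wholly above it, and at 24 h 6 subunits, all but *CCT2* and *CCT6A*, lay wholly below DMSO.

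After 24 h NXP800 had lowered 6 of the 8 transcripts and raised none, where 28.6% of all tested genes decreased and 27.5% increased. The deepest fall was that of *TCP1*, from 748, 711 and 787 CPM with DMSO to 559.7, 480.3 and 511.1 with NXP800. The lowest control library exceeded the highest treated one by far, and *TCP1* decreased by 30.9% (log2 fold change -0.53, SE 0.067, adjusted p = 4.63e-06). *CCT5* fell from 1145, 1079 and 1155 to 958.8, 845.2 and 904.9 CPM (-0.32, SE 0.065, adjusted p = 0.000542), and the groups did not overlap. *CCT8*, close to its control at 6 h, fell from 614.4, 601.2 and 627 to 525.5, 474.6 and 482.1 CPM (-0.31, SE 0.062, adjusted p = 0.000408), again without overlap. *CCT3* fell from 555.8, 536 and 571.3 to 484.4, 443.3 and 467 CPM (-0.25, SE 0.058, adjusted p = 0.00137). These 4 calls held without any single library, with *CCT3* at most at an adjusted p of 0.0104.

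*CCT4* and *CCT7* fell less. *CCT4* went from 696, 677.9 and 735.1 to 658.1, 587.3 and 614 CPM (log2 fold change -0.18, SE 0.066, adjusted p = 0.0262) and *CCT7* from 756.1, 727.2 and 779 to 698.2, 633.5 and 682.2 CPM (-0.17, SE 0.061, adjusted p = 0.0272). Both falls were close to the threshold although the groups did not overlap. The call of *CCT4* was lost without DMSO 24 h replicate 3 (adjusted p = 0.104), NXP800 24 h replicate 2 (0.144) or NXP800 24 h replicate 3 (0.0651), and that of *CCT7* without DMSO 24 h replicate 1 (0.0604), DMSO 24 h replicate 3 (0.0966) or NXP800 24 h replicate 2 (0.165), so that 4 to 7 subunits decreased when a library was left out. With scaling by library size alone their adjusted p values were 0.133 and 0.169, which left 4 subunits decreased, as did the fit without a filter on low counts and that of the 24 h libraries alone.

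*CCT6A* and *CCT2* did not pass the test at 24 h. *CCT6A* lay at 557.1, 521.3 and 585.6 CPM with DMSO and at 544.7, 477.3 and 511.6 with NXP800, and the groups overlapped (log2 fold change -0.12, SE 0.065, adjusted p = 0.134). With the replicate block it decreased (adjusted p = 0.0419), which gave 7 subunits, against 33.1% of all genes. *CCT2* lay at 483.9, 459.2 and 469 CPM with DMSO and at 510.5, 436.1 and 454 with NXP800, with a log2 fold change of -0.012 (95% interval -0.165 to 0.141, adjusted p = 0.891) whose sign turned in several alternatives. The counts of subunits without overlap were 6 of 8 below DMSO at 24 h, as for 30.1% of the tested genes.

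**Figure D3:**
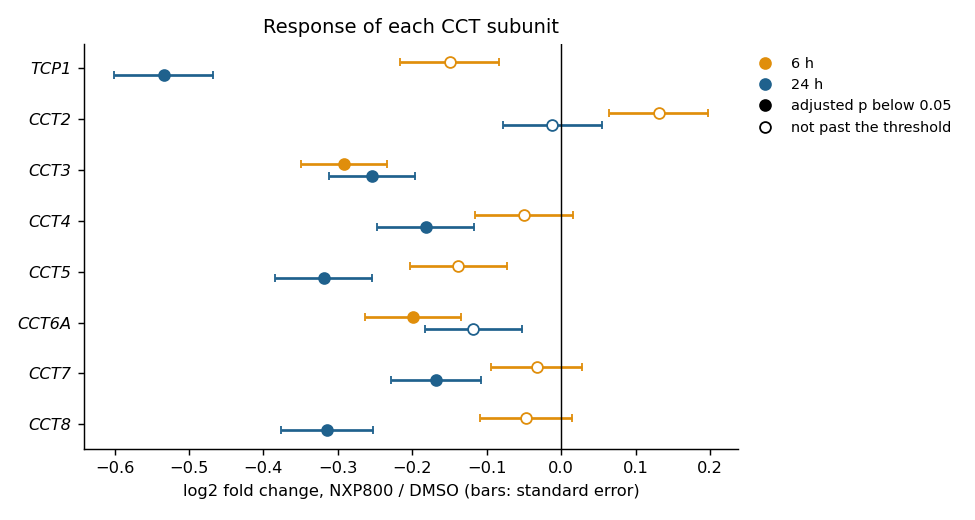
Log2 fold change of NXP800 against DMSO for each subunit at 6 h and 24 h (horizontal axis, bars for 1 standard error; filled points for an adjusted p below 0.05 by edgeR's quasi-likelihood test, open points for the rest). The values ran from -0.29 (*CCT3*) to 0.13 (*CCT2*) at 6 h and from -0.53 (*TCP1*) to -0.012 (*CCT2*) at 24 h.

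The response was deeper at 24 h than at 6 h for 2 subunits, against 25.8% of all tested genes with a difference in either direction. The difference of the log2 fold changes (24 h minus 6 h) was -0.38 (SE 0.094, adjusted p = 0.007) for *TCP1* and -0.27 (SE 0.087, adjusted p = 0.0331) for *CCT8*. That of *TCP1* passed without any single library (adjusted p 0.00184 to 0.0212), whereas that of *CCT8* was lost without DMSO 6 h replicate 2 or 3, NXP800 6 h replicate 1, 2 or 3, DMSO 24 h replicate 1 or 3 or NXP800 24 h replicate 3 (up to 0.0781) and without a filter on low counts (0.116). *CCT5* had a difference of -0.18 (SE 0.092, adjusted p = 0.163), which passed with the replicate block (adjusted p = 0.048) and brought the called subunits to 3, against 39.3% of all genes. *CCT3* and *CCT6A*, the subunits called at 6 h, had differences of 0.038 (95% interval -0.151 to 0.226) and 0.081 (interval -0.13 to 0.293). *CCT2*, *CCT4* and *CCT7* had values between -0.14 and -0.13 that did not pass the test. Since the 6 h and 24 h libraries differ as sets, time and library set cannot be told apart in these differences either.

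The summed level of the 8 transcripts was lower in every NXP800 library than in every DMSO library of the same time. Of single genes, 32.7% at 6 h and 30.1% at 24 h lay wholly below DMSO. The protein complex was not measured in these data. The CPM of the 8 subunits summed to 5294, 5254 and 5056 in the DMSO 6 h libraries, a mean of 5201 ± 128 (SD, n = 3), and to 4914, 4847 and 4833 in the NXP800 6 h libraries (4865 ± 43.4). The sums at 24 h were 5556, 5313 and 5709 with DMSO (5526 ± 200) and 4940, 4378 and 4627 with NXP800 (4648 ± 282). Of all gene counts the subunits took 0.53 to 0.542% in DMSO 6 h, 0.507 to 0.51% in NXP800 6 h, 0.502 to 0.524% in DMSO 24 h and 0.451 to 0.473% in NXP800 24 h, so that the shares of unscaled counts were apart as well.

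Between replicates of one group the subunits tended to lie on the same side of the group mean. In NXP800 24 h all 8 were above it in replicate 1, 0 in replicate 2 and 4 in replicate 3, and in DMSO 24 h 6 were above it in replicate 1, 0 in replicate 2 and 7 in replicate 3. At 6 h the numbers were 7, 6 and 0 with DMSO and 8, 2 and 2 with NXP800. The share of all genes above their group mean in each library was not computed, so this cannot be called particular to the subunits. The TMM factor that scales a library also differed between these replicates, with 0.959, 1.031 and 0.99 in NXP800 24 h, and its part in the shared movement was not tested. Without NXP800 24 h replicate 2, the library of the lowest levels and the highest factor of its group, the median log2 fold change of the subunits at 24 h was -0.16 instead of -0.22.

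The median log2 fold change of the subunits was -0.09 at 6 h and -0.22 at 24 h, and that of all tested genes was -0.05 and -0.003. At 6 h 7 of 8 subunits had a value below 0, as had 8558 of 15979 genes, and at 24 h all 8, as had 8017 of 15979. The subunits were also closer to each other than genes at large: the SD of their log2 fold changes was 0.127 at 6 h and 0.158 at 24 h, against 0.701 and 0.842 over all genes. Since low genes vary more, the 307 genes with a mean level at or above that of the lowest subunit are given beside them, with an SD of 0.437 and 0.488 and a median of -0.11 and -0.06. Of those 307 genes 29.6% decreased at 6 h and 39.1% at 24 h.

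Whether the 8 transcripts moved by the same amount was tested by scaling each library to the mean log2 level of the complex and repeating the edgeR fit, in which a subunit that moved with the complex has a log2 fold change near 0. The 8 subunits set this scale, so their values average near 0 and lose their shared spread. The shares of all genes given beside them, here and for the ratios below, are therefore not a like background. At 6 h 2 subunits departed from the complex, where 49.9% of all genes did: *CCT2* was higher relative to it (0.23, SE 0.049, adjusted p = 0.00119) and *CCT3* lower (-0.19, SE 0.046, adjusted p = 0.00231). With the mean of the other 7 subunits as scale *CCT6A* was lower at 6 h as well (-0.12, adjusted p = 0.0446, against 0.0752 with all 8). At 24 h 3 subunits departed, where 60.3% of all genes did. *TCP1* was lower relative to the complex (-0.30, SE 0.046, adjusted p = 4.64e-05), and *CCT2* (0.22, SE 0.049, adjusted p = 0.00105) and *CCT6A* (0.12, SE 0.046, adjusted p = 0.0325) were higher. *CCT4*, *CCT5*, *CCT7* and *CCT8* did not pass this test at either time, with values from -0.08 to 0.07 and 95% intervals that lay within -0.185 and 0.175.

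The departures changed between the time points for *TCP1* and *CCT6A* (2 subunits, against 26.6% of all genes). Relative to the complex the response of *TCP1* was lower at 24 h than at 6 h by a log2 difference of -0.24 (SE 0.064, adjusted p = 0.0115) and that of *CCT6A* higher by 0.22 (SE 0.064, adjusted p = 0.0189). *CCT3* returned toward the complex, with a difference of 0.18 (SE 0.065, adjusted p = 0.0517) that passed with the replicate block (adjusted p = 0.0324, which made 3 subunits against 40% of all genes). For *CCT2* the difference was -0.004 (95% interval -0.164 to 0.155). Here too time and library set cannot be told apart.

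The same was seen in the ratio of each subunit to the mean of the other 7 in single libraries. The log2 ratio of *CCT2* was -0.575, -0.505 and -0.577 in DMSO 6 h and -0.287, -0.269 and -0.319 in NXP800 6 h, and at 24 h it was -0.541, -0.555 and -0.636 with DMSO and -0.274, -0.334 and -0.355 with NXP800. The ratio of *CCT2* was thus higher in every treated library at both times. That of *TCP1* went from 0.177, 0.166 and 0.217 in DMSO 24 h to -0.123, -0.175 and -0.16 in NXP800 24 h, and that of *CCT3* from -0.532, -0.517 and -0.496 in DMSO 6 h to -0.747, -0.758 and -0.708 in NXP800 6 h. *TCP1* passed from above the other subunits to below them at 24 h, and *CCT3* moved further below them at 6 h. That of *CCT6A* went from -0.134, -0.136 and -0.113 to -0.26, -0.242 and -0.232 at 6 h and from -0.309, -0.346 and -0.27 to -0.167, -0.185 and -0.159 at 24 h, and hence moved in opposite directions without overlap. At each time 7 of 8 ratios did not overlap between the groups, all but *CCT4* at 6 h and all but *CCT3* at 24 h, where 61.6% of all genes did not overlap in their ratio to the complex at either time.

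**Figure D4:**
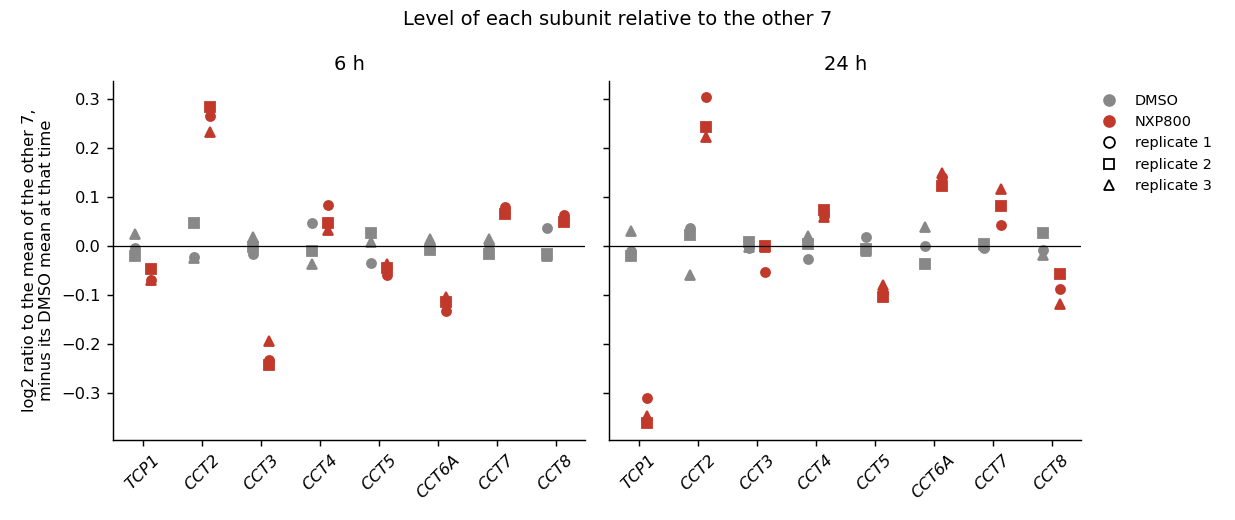
Log2 ratio of each subunit to the mean of the other 7 in single libraries, less its DMSO mean at the same time (vertical axis; grey DMSO, red NXP800; a symbol per replicate number). *CCT2* was higher with NXP800 at both times (by 0.261 and 0.256), *CCT3* lower at 6 h (-0.223) and *TCP1* lower at 24 h (-0.339).

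Of 5689 genes whose log2 CPM averaged 5 or more, the 5 outside the complex whose centred log2 level across the 12 libraries was most like the mean of the subunits were *EIF3B*, a subunit of the initiation factor eIF3, *EIF4H*, a cofactor of the helicase eIF4A, *MRPL27*, a protein of the mitochondrial ribosome, *XRCC6*, the Ku70 subunit of the DNA end-binding factor, and *PFKP*, a phosphofructokinase. Their root mean square distance from that mean ran from 0.04 to 0.0464 (log2). The distance of single subunits from it ran from 0.0356 for *CCT5* and 0.0444 for *CCT7* to 0.153 for *CCT3* and 0.173 for *CCT8*, although each of them enters the mean. *CCT8* would take place 1514 and *CCT3* place 1126 in the ranking of the candidates. These places do not measure the response to NXP800 alone, since the distance also holds the difference between the DMSO groups. The DMSO ratio of 24 h to 6 h was 0.877 for *CCT8* and 1.2 for *CCT3*. Relative to the complex, the response of *CCT8* to NXP800 did not pass the test at 6 h (0.051) or 24 h (-0.076).

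*TCP1*, *CCT4*, *CCT5*, *CCT6A* and *CCT7* each start 32 to 181 bases from a protein-coding gene that is transcribed away from them (GENCODE). *MRPL18*, a mitochondrial ribosomal protein gene 109 bases from *TCP1*, decreased at 6 h (log2 fold change -0.43, adjusted p = 0.00101) and 24 h (-0.47, adjusted p = 0.000355). *PRADC1*, 181 bases from *CCT7*, decreased at both times (-0.89 and -1.11), more than *CCT7* did. *PSPH*, the last enzyme of serine synthesis, 81 bases from *CCT6A*, increased at 6 h (0.99, adjusted p = 9.46e-09) and 24 h (0.78, adjusted p = 8.93e-08), opposite in sign to *CCT6A*. *COMMD1*, 53 bases from *CCT4*, had values of -0.08 and 0.22 and *ATPSCKMT*, 32 bases from *CCT5*, of -0.23 and -0.23 that did not pass the test, the latter passing with the replicate block (adjusted p = 0.0295 and 0.0374). The called neighbours thus held both directions.

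Some exon sequence of the subunits is shared with other genes. *TCP1* overlaps *ACAT2*, an enzyme of acetyl-CoA metabolism, on the opposite strand over 9.3% of its exon length, and *ACAT2* decreased at 6 h (log2 fold change -0.45, adjusted p = 0.00181) and more deeply at 24 h (-1.55, adjusted p = 5.46e-09). *ACAT2* went from 124, 167.5 and 170 CPM in DMSO 24 h to 52.2, 48.88 and 56.54 in NXP800 24 h, a level well below that of *TCP1*. The library kit marks strand but the setting used for counting is not given in the sources used here, and the part of *ACAT2* in the fall of *TCP1* was not tested. Opposite-strand noncoding transcripts of GENCODE cover 30.76% of the exon length of *CCT5*, 16.88% of *CCT4* and 2.54% of *CCT8* and carry no symbol of the count table. Of the processed or transcribed copies of the subunits *CCT6P1* and *CCT6P3* were counted, at 2.776 to 6.694 and 0.9891 to 2.219 CPM, against 477.3 CPM or more for *CCT6A*, whose count is to that extent uncertain.

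Among the proteins that work with the chaperonin, prefoldin had members called in both directions. Of 6 subunits, 1 increased and 2 decreased at 6 h, and likewise at 24 h (1 decreased with DESeq2), shares near those of all tested genes, of which 25% increased and 27.8% decreased at 6 h and 27.5% and 28.6% at 24 h. These shares are also the background of the lists that follow. *PFDN2*, shared by prefoldin and the URI1 prefoldin-like complex, rose from 48.32, 55.43 and 47.15 to 86.28, 84.35 and 87.41 CPM at 6 h (log2 fold change 0.77, adjusted p = 4.65e-07) and from 73.4, 64.66 and 78.49 to 146.9, 157.6 and 157.4 at 24 h (1.09, adjusted p = 6e-09). No treated library came near the controls. *PFDN5* fell at 6 h (-0.44, adjusted p = 0.000103) and 24 h (-0.33, adjusted p = 0.00119), opposite to *PFDN2*. Of the 3 genes of the prefoldin-like complex, *PDRG1* rose at 6 h (0.35, adjusted p = 5.94e-05) and was at 0.10 (adjusted p = 0.143) at 24 h, and *UXT* rose at 24 h (0.20, adjusted p = 0.0195), a call lost without DMSO 24 h replicate 2 (0.0731) or NXP800 24 h replicate 1 (0.0783). *URI1* was at the threshold at 6 h (-0.15, adjusted p = 0.0464) and did not pass with other scalings, without a filter, in the 6 h libraries alone or with DESeq2 (up to 0.16), nor without DMSO 6 h replicate 1 or 2, NXP800 6 h replicate 1, 2 or 3, DMSO 24 h replicate 1 or NXP800 24 h replicate 1 or 2 (up to 0.135). Of the 4 phosducin-like genes 3 were tested, of which *PDCL3* fell at 6 h (-0.41, adjusted p = 0.000698) and none was called at 24 h, with 0 also at an unadjusted p below 0.05 in edgeR and 0 in DESeq2.

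The genes related to the chaperonin by sequence went up where they were called. Of 5, 4 were tested, of which 3 increased at 6 h (25% of all genes) and 4 at 24 h (27.5%) and 0 decreased, with medians of 0.67 and 0.60. *BBS12*, which with *MKKS* and *BBS10* assembles the BBSome core on CCT, rose from 2.788, 3.342 and 3.159 to 5.035, 5.263 and 4.544 CPM at 6 h (log2 fold change 0.67, adjusted p = 0.000753) and also at 24 h (0.69, adjusted p = 0.00069). *CCT6B*, the testis form of the ζ subunit, rose at 24 h (1.37, SE 0.42, adjusted p = 0.0108) from counts of 10, 13 and 1 to 22, 22 and 22, too few for a firm size, and was at 0.82 (adjusted p = 0.126) at 6 h. The canonical *CCT6A* lay far above it in every library.

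The medians of the client transcripts lay further below 0 than that of the chaperonin. Of 14 actin and tubulin genes 10 decreased and 0 increased at either time (27.8% and 28.6% of all genes decreased), with medians of -0.40 and -0.53. *TUBB* went from 3347, 3307 and 3448 to 1535, 1651 and 1900 CPM at 6 h (log2 fold change -0.99, adjusted p = 4.12e-07) and was at -0.93 at 24 h, and *TUBB4B* was at -0.89 and -0.96, although reads of near-identical tubulin genes may be split between them. Of 17 other described clients 3 increased and 8 decreased at 6 h, and 3 increased and 10 decreased at 24 h, against 25% and 27.8% of all genes at 6 h and 27.5% and 28.6% at 24 h, with medians of -0.16 and -0.42. *VHL*, a tumour suppressor that needs the chaperonin to enter its ubiquitin ligase, rose at 6 h (0.75, adjusted p = 1.11e-05) and 24 h (0.44, adjusted p = 0.0013). *CCNE1*, cyclin E1, fell at 6 h (-0.86, adjusted p = 6.55e-06) and 24 h (-0.53, adjusted p = 0.000641), and *PLK1*, a mitotic kinase, fell by 0.33 (adjusted p = 0.00576) and 1.39 (adjusted p = 3.44e-09) on the log2 scale. The clients as a group thus hold members of both directions.

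Heat shock chaperones and cochaperones outside the complex had lower medians than the subunits. Of 21, 20 were tested, of which 18 decreased at 6 h (27.8% of all genes) and 17 at 24 h (28.6%) and 0 increased, with medians of -0.55 and -0.62 against the -0.09 and -0.22 of the subunits. The deepest fall of the list was that of *HSPA1A*, the inducible HSP70, from 23.98, 25.98 and 37.4 to 3.715, 3.121 and 4.974 CPM at 6 h (log2 fold change -2.89, adjusted p = 3.9e-07) and from 36.33, 22.46 and 46.14 to 10.57, 5.706 and 10.59 at 24 h (-1.97, adjusted p = 7.79e-06). *HSPA1A* has a near-identical copy in *HSPA1B*, so that reads may be split. At 6 h the lowest subunit value, -0.29, lay above the median of this list, and at 24 h the same held for -0.53 of *TCP1*. The lists were compared as a description, and the difference between them was not tested. The counts of 0 in one direction for related chaperonins, actins and tubulins and heat shock chaperones were also 0 at an unadjusted p below 0.05 in edgeR and in DESeq2.

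**Figure D5:**
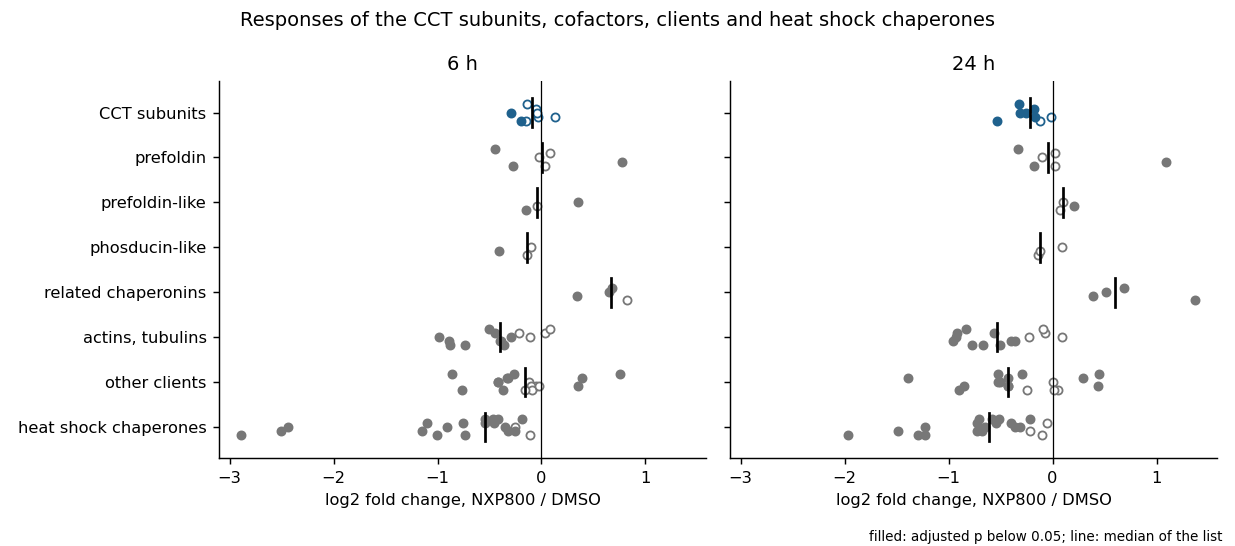
Log2 fold change of NXP800 against DMSO at 6 h and 24 h (horizontal axes, same scale) for the tested genes of each list, 1 point per gene, filled where the adjusted p was below 0.05, with a line at the median of the list. The subunits lay between -0.53 and 0.13, while heat shock chaperones reached -2.89 and related chaperonin genes 1.37.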

How the data were processed

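Poly(A) RNA of 12 MNNG/HOS libraries was sequenced as paired ends. The deposited files hold raw counts for each gene symbol, made by the authors on hg38 with the RefSeq annotation of GRCh38.p14; the submitters' processing notes name fastp 0.20.1, STAR 2.7.5a and HTSeq 0.12.4, and the strand setting is not given in the sources used here. Entries that name no gene (2.73 to 8.14% of read pairs on no feature, 2.10 to 2.43% ambiguous) entered neither library sizes nor tests. No replicates agreed within sampling noise. The tests used edgeR 4.0.16 under R 4.3.3 (filterByExpr, TMM, quasi-likelihood test, 1 model of the 4 groups, contrasts at 6 h, 24 h and their difference) with Benjamini-Hochberg adjustment over 15979 genes. Calls are at an adjusted p below 0.05. To measure departures from the complex, libraries were scaled by the mean log2 CPM (no prior count) of the 8 subunits in place of TMM. The ratios in single libraries and the profile distances used log2 CPM with a prior count of 2. Levels per kilobase used MANE Select lengths. Alternatives were DESeq2 1.42.0, other scalings, filters and thresholds, a replicate block, the libraries of a time point alone, the other 7 subunits as scale and each library left out. After removal of group means, same-numbered DMSO and NXP800 libraries correlated over 9591 genes (r 0.410 to 0.574, against at most -0.0185 for different numbers). Genes are not independent replicates. Removing the mean of 3 libraries pushes the values of different numbers below 0 where same numbers correlate, so they are no separate evidence. The numbers in the labels are the only source of the pairing. The procedures were run on simulated data as a check of the code. Few genes were changed there and the libraries were drawn independently, unlike in these data. The members, lists and tests were chosen with earlier results of these data known. Besides the subunits, the text names the called gene with the largest rise and the largest fall of each list and time point, neighbours, overlapping and copied genes and the 5 genes of most similar profile; *MKKS*, *BBS10* and *HSPA1B* are named for background only.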

Additional observations from a re-analysis of the deposited data

Results flagged for a closer look

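The response at 24 h differed from that at 6 h, by the contrast of the responses in the edgeR quasi-likelihood fit, for 6 of the genes whose values are given. Time and library set cannot be told apart in such differences. The difference of log2 fold changes (24 h minus 6 h) was -0.384 for *TCP1* (adjusted p = 0.007) and -0.267 for *CCT8* (adjusted p = 0.0331), both deeper falls at 24 h. It was -1.105 for *ACAT2* (adjusted p = 5.95e-05) and -1.061 for *PLK1* (adjusted p = 2.12e-05), which fell at both times and further at 24 h. For *PFDN2* it was 0.319 (adjusted p = 0.0376), a larger rise at 24 h, and for *PDRG1* -0.251 (adjusted p = 0.0268), a smaller value at 24 h. The pass of *PFDN2* was lost with DESeq2's Wald test (adjusted p = 0.0624) and without DMSO 6 h replicate 2, NXP800 6 h replicate 1, 2 or 3, DMSO 24 h replicate 1 or 2 or NXP800 24 h replicate 2 or 3 (up to 0.115). That of *PDRG1* was lost without DMSO 6 h replicate 3, NXP800 6 h replicate 1 or 2 or DMSO 24 h replicate 2 or 3 (up to 0.0674), with library size only (0.1) and with no filter on low counts (0.19). With the replicate block the difference also passed for *CCT5* (adjusted p = 0.048), *HSPA1A* (0.923, adjusted p = 1.7e-05), *VHL* (-0.315, 0.00334), *CCNE1* (0.335, 0.0128), *PDCL3* (0.286, 0.0162), *URI1* (0.216, 0.0177), *UXT* (0.245, 0.021) and *PSPH* (-0.215, 0.0215). All 4 groups have 3 libraries, so single outlying libraries were not tested for.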

How the results depend on the processing

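The number of subunits called at 6 h (2, both decreased) was 1 at an adjusted p below 0.01 and 1 to 3 when a library was left out. It was 4 with library size only (1 increased, 3 decreased) and 4 with the 6 libraries of the time point alone (1 increased, 3 decreased). With the replicate block it was 5 (1 increased, 4 decreased). In these fits the increased subunit was *CCT2* (edgeR adjusted p = 0.0278, 0.0133 and 0.0256, in this order). *CCT2* also passed without NXP800 24 h replicate 2 (0.0292). The number with a difference of responses (2) was 1 without a filter on low counts, 1 at an adjusted p below 0.01 and 1 to 2 when a library was left out, and the number at 24 h (6) was 4 to 7. With library size only the medians were -0.129 at 24 h and -0.068 for the difference, and over the libraries left out the medians ran from -0.12 to -0.063 at 6 h, from -0.255 to -0.156 at 24 h and from -0.194 to -0.1 for the difference. The counts relative to the complex were 2 to 2 at 6 h and 2 to 3 at 24 h over the libraries left out, and 3 and 3 with the mean of the other 7 subunits as scale. *CCT2* at 24 h changed sign with library size only (0.076), without a filter (0.006), with the 24 h libraries alone (0.008) and without some libraries (-0.08 to 0.061), *CCT7* at 6 h came to 0 with the 6 h libraries alone, and *COMMD1* at 6 h ran from -0.274 to 0.032 over the libraries left out; the cause was not tested. The replicate block changed the calls given above for *TCP1*, *CCT2*, *CCT5*, *CCT6A*, *CCT3* relative to the complex and *ATPSCKMT*. It also changed those of *PFKP* (adjusted p = 0.0331) and the low *CCT6P1* (adjusted p = 0.0467) at 6 h. In the difference of responses it changed those listed among the results for a closer look, and no other call of a gene whose values are given. DESeq2's size factors and its Wald test gave 2, 6 and 2 subunits at 6 h, at 24 h and in the difference, although the Wald test called 26.5%, 29% and 12.3% of all genes where edgeR called 52.8%, 56% and 25.8%. Counting error is small at these depths for the subunits. It is larger for genes of low counts, such as *CCT6B*, *CCT6P1*, *CCT6P3* and *BBS12*. *HSPA1A* had only 121, 102 and 162 counts in the NXP800 6 h libraries.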
